A study of Homo sapiens with 9 samples.

Results

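Mitochondrial ribosomal proteins are encoded in the nucleus, made in the cytosol and imported into mitochondria, where they assemble with mitochondrial rRNA into the mitoribosome. The mitoribosome translates only the mRNAs of the mitochondrial genome, which code for subunits of the respiratory chain complexes and of ATP synthase. Compared with its bacterial relative it has lost rRNA and gained proteins, so its subunits fall into proteins with a counterpart in bacterial ribosomes and proteins added in mitochondria. Its genes are transcribed in nearly every cell type.

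The genes described here are the protein-coding genes whose GENCODE symbol starts with MRPL or MRPS followed by a number, which gave 78 genes (49 MRPL and 29 MRPS) of 58096 gene identifiers in the series. They lie on 21 chromosomes. By their place in the mitoribosome, 51 encode proteins of the large subunit and 26 encode proteins of the small subunit, because MRPS18A and MRPS30 sit in the large subunit in spite of their symbols. MRPS36, whose product belongs to the 2-oxoglutarate dehydrogenase complex, matches the symbol but is not a mitoribosome subunit. The series measured polyadenylated RNA in ALL-SIL, an established human T-cell acute lymphoblastic leukaemia (T-ALL) line that expresses the homeobox oncogene TLX1, after electroporation with TLX1 siRNA1, TLX1 siRNA2 or an NTC siRNA. Each of the 3 groups holds 3 libraries numbered 1 to 3, all from the same cell line, with no other allele or agent in the labels. The labels do not say whether the numbered libraries came from separate electroporations, so the p-values measure the spread between these libraries, which may be technical.

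Each library held 58305492 to 99524663 counts in genes, and the 78 genes together took 0.328% to 0.367% of them. TLX1 itself, the gene named in the siRNA labels, had 184, 167 and 183 CPM (counts per 1000000 gene counts) in the NTC libraries 1 to 3. The siRNA1 libraries had 406, 457 and 387 CPM of it and the siRNA2 libraries 198, 231 and 179 CPM. Its level thus rose from NTC to siRNA1 (1.23 on the log2 scale, SE 0.10, with an adjusted p of 0.000449 by edgeR's quasi-likelihood test), which goes against the label of a knockdown. From NTC to siRNA2 it did not fall either (0.19 on the log2 scale, SE 0.10), and that difference did not pass. Every direction below is given by label only. All 10 T lineage markers of T-ALL were expressed, with a highest value of 616 CPM. The highest B cell, myeloid, erythroid and epithelial or fibroblast markers in any library were at 20.4, 0.802, 0.221 and 0.110 CPM. The share of reads that fell in no gene was highest in 2 libraries. It was 10.2% in siRNA1 replicate 3 and 10.3% in siRNA2 replicate 3, against 8.33% to 9.64% in the other 7. These 2 also had the lowest shares of reads in genes, 75.5% and 75.6%, against 76.4% to 77.6% in the other 7. siRNA2 replicate 3 had the fewest counts in genes as well. In bulk RNA of this kind, a change in the mix of cells and a change in RNA per cell cannot be told apart.

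Some of the short words sought, chiefly those of ETS factors and YY1, were more frequent in the promoters of these genes than in promoters at large. Others were less frequent than in promoters of expressed genes. Of the promoters, 10 are shown because they carry the genes that the comparisons below turn on or the words themselves. RefSeq promoter windows (GRCh38.p14, 250 bases before to 50 after the start) were matched for 69 of the 78 genes by symbol. On either strand, CCGGAAG, the core word of ETS factors such as GABPA, was in 29 of 69 windows (42.0%), against 10.7% of all 27305 windows and 19.6% of the 9824 windows of protein-coding genes expressed here. The YY1 word AAGATGGC was in 20 of 69 windows, against 3.03% of all windows and 5.58% of those of expressed genes. Of its 21 matches, 15 lay on the gene's own strand after the start, between positions 7 and 36, and the word contains ATG, so it can coincide with a start codon. The NRF1 word GCATGCGC was in 6 windows (8.70%, against 5.63% of expressed genes), the NFY word CCAAT in 20 of 69 (against 36.8%), the E-box CACGTG of MYC and its partners in 6 (8.70% against 9.97%), the SP1 word GGGCGG in 42 (60.9% against 68.5%) and TATAAA in 2 (2.90% against 5.44%). These words describe the windows and no factor's binding was measured. The ETS and YY1 words can overlap through the letters AAG.

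The first 3 windows below, each running from 100 bases before to 30 after the RefSeq start, carry the words at several places, with ETS and YY1 words of either strand in capitals. MRPS10 encodes a small subunit protein with a bacterial counterpart, MRPL20 a large subunit protein with one, and MRPS34 a small subunit protein added in mitochondria.
MRPS10 (chr6:42217832-42217961, minus strand): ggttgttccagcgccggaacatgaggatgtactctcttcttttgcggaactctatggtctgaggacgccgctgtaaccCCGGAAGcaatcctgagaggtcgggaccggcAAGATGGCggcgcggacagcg
MRPL20 (chr1:1407264-1407393, minus strand): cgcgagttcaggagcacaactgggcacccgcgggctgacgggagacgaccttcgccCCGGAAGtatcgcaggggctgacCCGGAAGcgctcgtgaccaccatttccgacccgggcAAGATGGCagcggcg
MRPS34 (chr16:1773105-1773234, minus strand): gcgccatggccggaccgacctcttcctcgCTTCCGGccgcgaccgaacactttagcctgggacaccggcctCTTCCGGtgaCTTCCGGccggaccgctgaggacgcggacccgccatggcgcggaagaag

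MRPL46 and MRPS11 are shown together because they lie head to head. On GENCODE 29 coordinates 33 bases separate the start of MRPL46 on the minus strand from that of MRPS11 on the plus strand, at chr15:88467453. The window below spans both of these GENCODE starts. The RefSeq window of MRPS11 runs from chr15:88467458 to 88467757 with 250 bases before its start, so its RefSeq start lies outside the window below. In all, 17 of the 78 genes (21.8%) had the start of a protein-coding gene on the opposite strand within 1000 bases upstream, against 7.32% of 19752 protein-coding genes. Other such neighbours were NDUFB5 of MRPL47 (35 bases) and NDUFS6 of MRPL36 (33 bases), both respiratory complex I genes, TCP1 of MRPL18 (62 bases), a subunit of the cytosolic chaperonin, and SKA3 of MRPL57 (42 bases), a spindle and kinetochore gene.
MRPL46 (chr15:88467359-88467488, minus strand): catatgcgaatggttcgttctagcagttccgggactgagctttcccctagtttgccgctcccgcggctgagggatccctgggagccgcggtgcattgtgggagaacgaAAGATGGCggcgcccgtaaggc

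The last 6 windows belong to the genes that were lower in the libraries labelled siRNA1 once replicate number entered the model (below). None of the 6 holds the ETS word in its whole 300-base window, and only that of MRPL42 holds the YY1 word. Of all 69 windows, 40 lack the ETS word and 49 lack the YY1 word. The median log2 fold change in siRNA1 vs NTC was -0.07 with the ETS word and -0.09 without it. For the YY1 word it was -0.10 with and -0.07 without. Whether the words bear on these calls was not tested.
MRPS35 (chr12:27710732-27710861, plus strand): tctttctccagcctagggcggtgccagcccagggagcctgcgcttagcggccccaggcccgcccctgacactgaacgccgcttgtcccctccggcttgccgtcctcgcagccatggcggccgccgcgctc
MRPL12 (chr17:81703267-81703396, plus strand): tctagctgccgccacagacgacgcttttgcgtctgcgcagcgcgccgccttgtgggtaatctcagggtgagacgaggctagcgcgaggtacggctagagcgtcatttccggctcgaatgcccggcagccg
MRPS6 (chr21:34073478-34073607, plus strand): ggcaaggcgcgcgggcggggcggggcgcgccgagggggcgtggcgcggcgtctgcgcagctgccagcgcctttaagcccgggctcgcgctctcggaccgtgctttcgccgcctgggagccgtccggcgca
MRPL57 (chr13:21176558-21176687, plus strand): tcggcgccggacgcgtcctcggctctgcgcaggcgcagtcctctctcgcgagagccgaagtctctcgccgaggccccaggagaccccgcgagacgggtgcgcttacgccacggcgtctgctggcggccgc
MRPL14 (chr6:44127279-44127408, minus strand): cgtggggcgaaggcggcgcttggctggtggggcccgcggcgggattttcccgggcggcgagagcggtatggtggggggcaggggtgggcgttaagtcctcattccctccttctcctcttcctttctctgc
MRPL42 (chr12:93467414-93467543, plus strand): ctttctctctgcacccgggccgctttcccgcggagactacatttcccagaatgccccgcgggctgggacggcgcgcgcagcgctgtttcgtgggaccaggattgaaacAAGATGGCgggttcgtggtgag

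All 78 genes were expressed and all passed the filter on low counts. The lowest count of any of them in a library was 26. In CPM, 69 of 78 had a mean of at least 10, and the median was 40.7, from 0.477 for MRPS24 to 115.5 for MRPL3. Reads in bases shared with another gene are not in these counts (below), so levels between genes are compared per kilobase of the principal transcript less its shared bases (CPM per kb), on which scale the median was 30.2 for all, 32.5 for large subunit genes and 25.9 for small subunit genes. Large subunit genes with a bacterial counterpart had a median of 47.2 CPM per kb (30 genes), and large subunit genes added in mitochondria 29.1 (21 genes). In the small subunit the medians were 25.9 for the 16 genes with a bacterial counterpart and 27.1 for the 10 added ones. The 4 ranges overlapped widely.

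The 6 highest genes per kb were MRPL20 (105.1 CPM per kb), MRPL18 (93.0), MRPL27 (92.5), MRPS34 (83.7), MRPS7 (73.9) and MRPL15 (71.5). MRPL20 ranged from 88.1 to 117.7 CPM per kb over the 9 libraries and MRPS34 from 65.2 to 95.6, so that neighbours in this order overlapped. MRPL27 is the counterpart of the bacterial protein that reaches into the peptidyl transferase centre, and MRPL18 that of the protein that binds 5S rRNA in bacteria. The 6 lowest were MRPL41 (3.14), MRPL53 (4.51), MRPS24 (4.72), MRPL22 (5.61), MRPL42 (6.18) and MRPS17 (6.94). The order depends on the length used. Per kb of the whole principal transcript, shared bases included, the median of the 78 was 27.6. On that scale MRPL18 (93.0) and MRPL27 (92.5) ranked above MRPL20 (84.8), MRPS7 (59.3) ranked 10 in place of 5, and MRPS24 (0.675) and MRPL53 (2.15) were the lowest. It moved 6 of the 78 genes by over 10 ranks. Over all unshared exon bases MRPL20 ranked 23 of 78 in place of 1, MRPL27 ranked 29 in place of 3, and MRPS34 ranked 1 in place of 4. MRPL42, at 94.6 CPM, ranks low per kb with a principal transcript of 15582 bases.

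**Figure D1:**
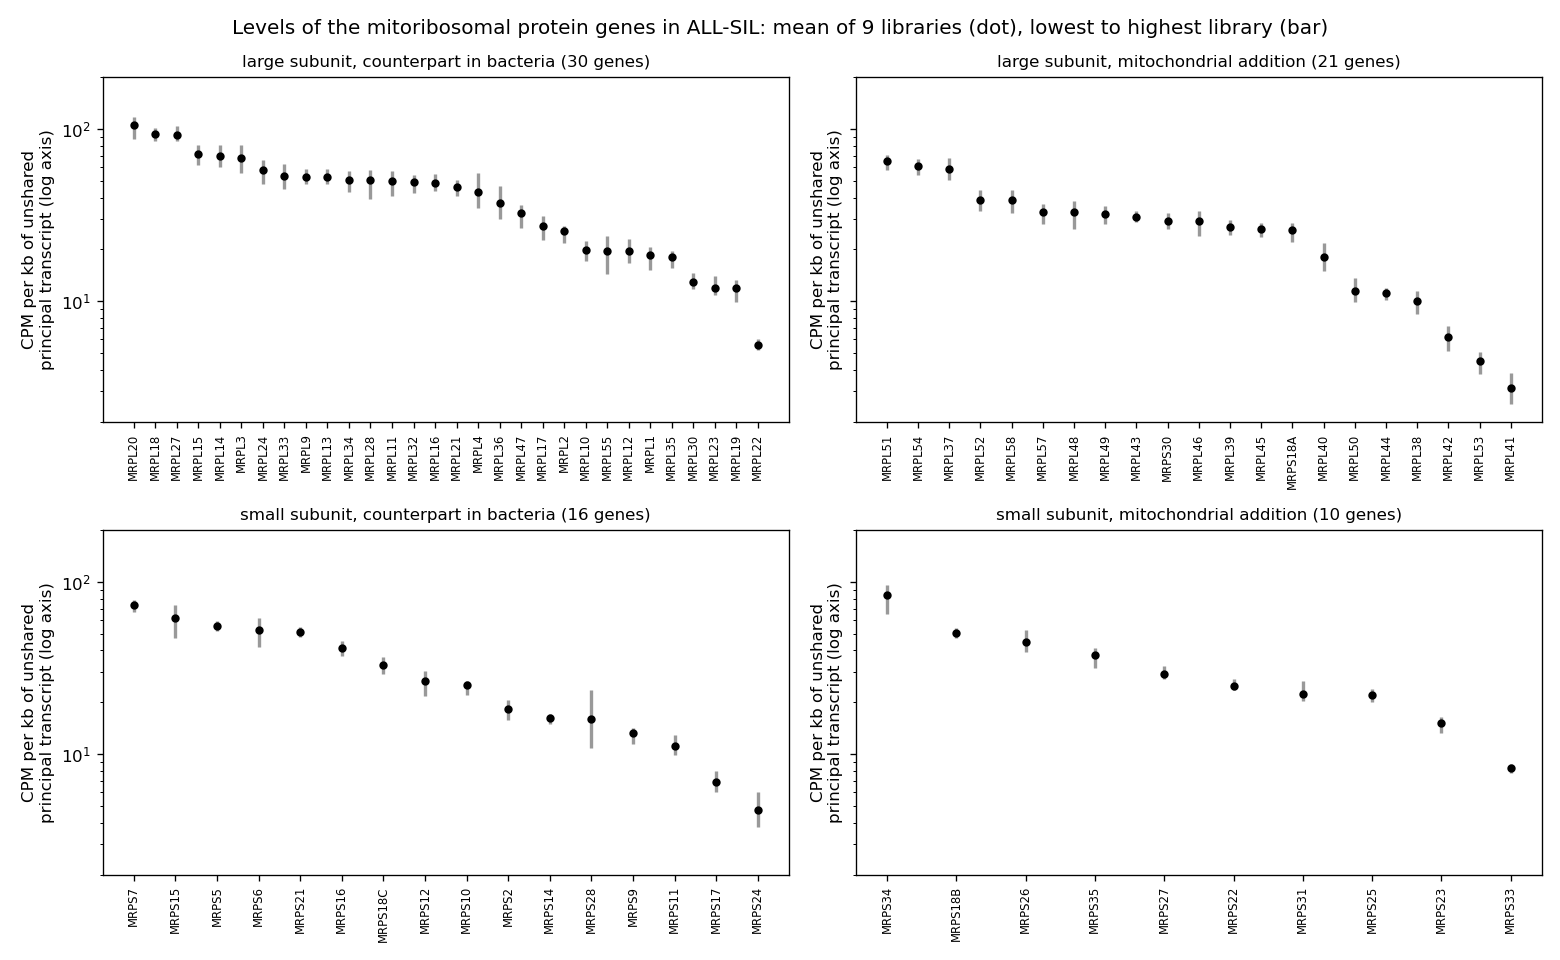
Level of each gene in CPM per kb of its principal transcript less shared bases, on a log axis, with a panel for each subunit and origin; dots are means of 9 libraries and bars run from the lowest to the highest library. The 4 panels overlap, from 3.14 CPM per kb for MRPL41 to 105.1 for MRPL20, and the bars are short beside the spread between genes.

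Several members have known roles outside the ribosome's core, and their levels per kb lay across the whole range. MRPL12, which also binds the mitochondrial RNA polymerase, stood at 19.6 CPM per kb of unshared bases (6.22 of the whole transcript), and MRPL11, a protein of the stalk base, at 50.1. MRPL58, a peptidyl-tRNA hydrolase built into the large subunit, stood at 38.7. MRPL45, near the exit of the peptide tunnel where the ribosome meets the inner membrane, stood at 26.4, and MRPL44, which has a fold like that of RNase III, at 11.2. MRPS12, the counterpart of the bacterial decoding centre protein, stood at 26.5 CPM per kb. The S18 family had 3 members: MRPS18B of the small subunit at 50.3, MRPS18C of the small subunit at 32.7 and MRPS18A of the large subunit at 25.8 CPM per kb of unshared bases. Most of the principal transcript of MRPS18C and of MRPS18A is shared, and per kb of the whole transcript their order turned, at 6.92 and 11.1. MRPS30, of the large subunit, stood at 29.4 and MRPS36 at 12.4 CPM per kb.

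Many of these genes share exon bases with another gene, and the deposited tables count reads that match more than 1 gene on a line of their own. Of the 78 genes, 41 shared some exon bases, 29 had a partner on the opposite strand, and 14 had over 20% of the principal transcript shared. MRPS24 shared 85.7% with the read-through gene URGCP-MRPS24, MRPS18C 78.9% with ABRAXAS1, MRPL46 71.1%, MRPL12 68.2% with AC139530.2 and MRPS18A 56.9% with RSPH9. Where the partner is antisense, the sum of the deposited strand counts, which keeps more of those reads, was 3.66 times the count used here for MRPS18C and 2.62 times for MRPS18A. This sum exceeded 1.2 times the count used here in 12 of 78 genes. With an unstranded kit it also takes in reads of the partner, so these ratios do not measure the reads missing from the member alone. Reads in shared bases are missing from the levels above. Of 75 pseudogenes named after members, MRPS31P5 had the most reads relative to its parent (9.65%), and the median was 0%, so reads of MRPS31 and MRPL45 are the least certain by this measure.

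Levels varied little, both over all 9 libraries and within a library group. For 71 of 78 genes the highest of the 9 libraries was under 1.5 times the lowest, with a median ratio of 1.31. The coefficient of variation within groups had a median of 7.72%, against 8.91% for 5744 protein-coding genes of like level.

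The libraries labelled siRNA1 were compared with NTC by label only. None of the 78 genes passed the test in edgeR (adjusted p under 0.05), where 1.28% of all 18554 tested genes did. DESeq2 called 2 (MRPS35 and MRPL12) and limma-voom 0, with no share of all genes given for either. At an unadjusted p under 0.05, 11 of 78 genes (14.1%) were lower and none was higher, against 10.3% of all genes in either direction. The fitted log2 fold changes ran from -0.36 for MRPL12 to 0.20 for MRPL55, with a median of -0.08 against 0.01 over all genes, and 60 of 78 were negative (76.9%, against 48.6% of all genes). In 15 genes every siRNA1 library was below every NTC library and in none was it above, where 8.27% of all genes were lower and 7.57% higher without overlap. For 74 of 78 genes the 95% interval of the fold change lay within 1.5-fold in either direction. The median came to -0.03 without siRNA1 replicate 3, the library of these 2 groups with the most reads in no gene. The part of that share of reads in this median was not tested.

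**Figure D2:**
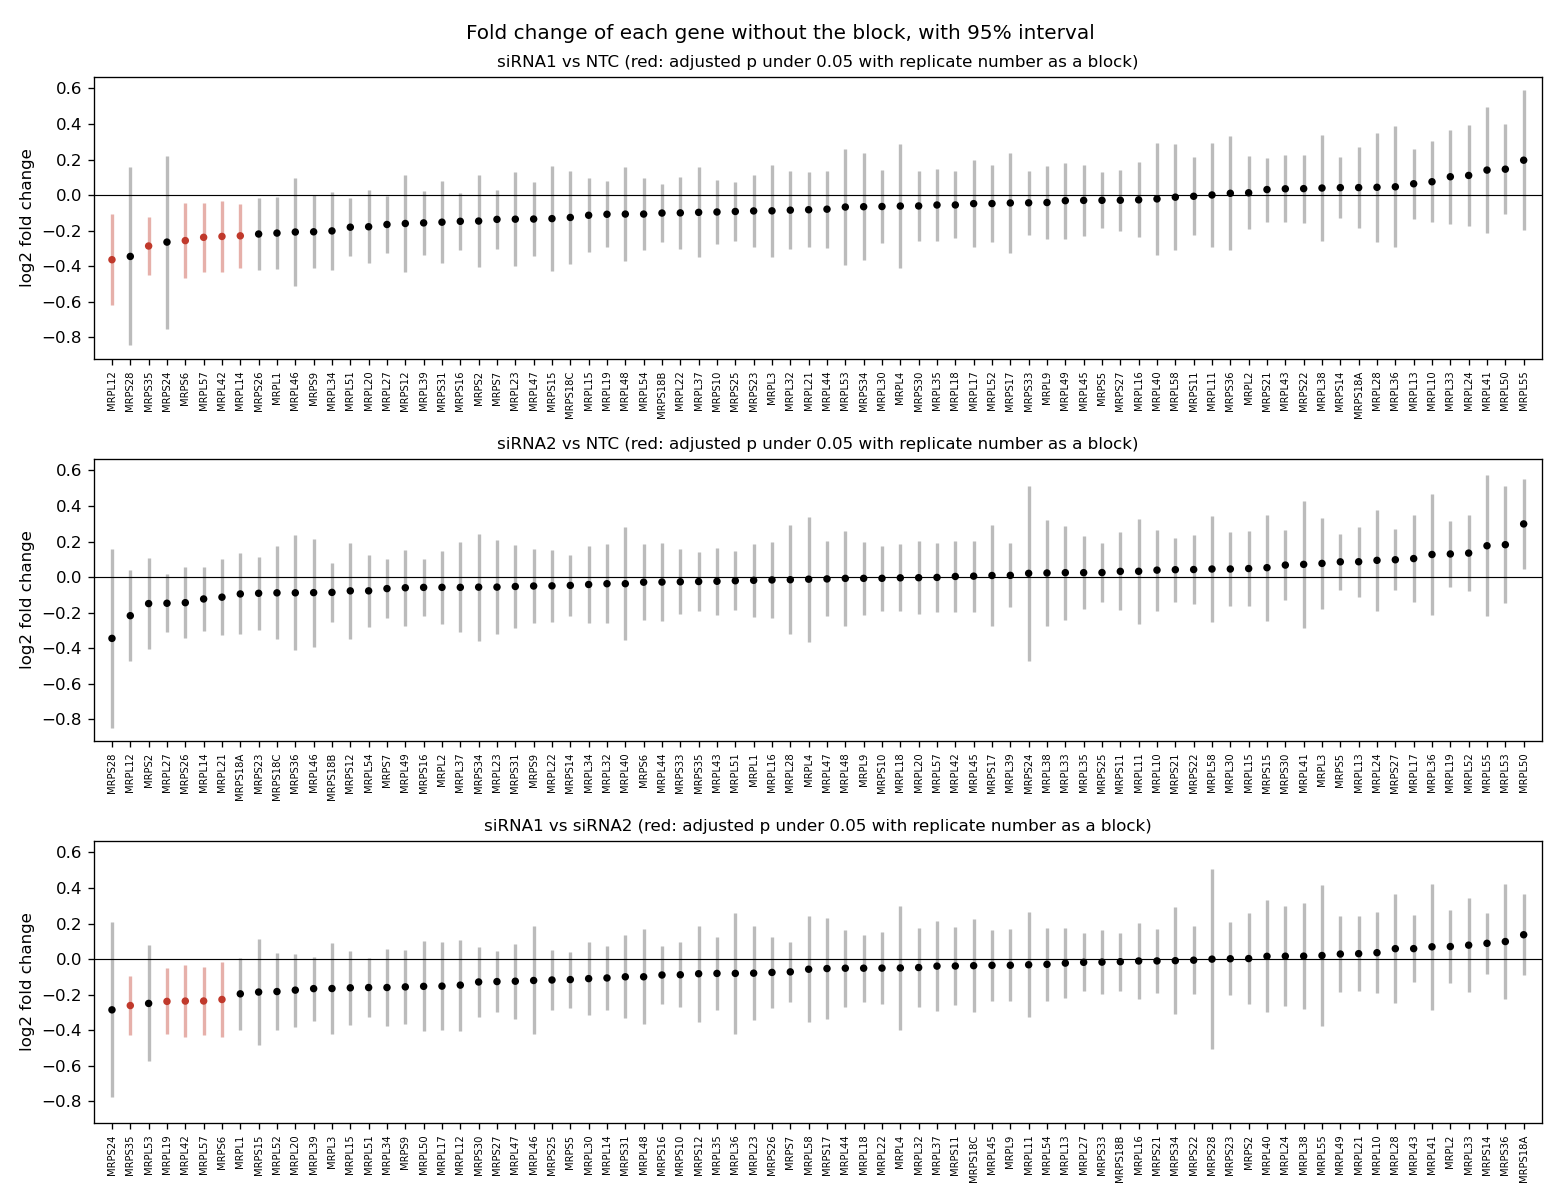
Fitted log2 fold change of each gene (dot) with its 95% interval (line) in 3 comparisons, ranked within each panel; red marks genes with an adjusted p under 0.05 once replicate number is a block. No gene passed without the block; 6 genes in siRNA1 vs NTC and 5 in siRNA1 vs siRNA2 are red, all below 0.

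With the replicate number as a block, 6 of 78 genes (7.69%) fell in the siRNA1 libraries against NTC and none rose, where 11.4% of all genes passed in either direction and 5.93% were lower. The members' share lay between these background values. The 6 were MRPS35, MRPL12, MRPS6, MRPL57, MRPL14 and MRPL42. Leaving out 1 library at a time moved these calls. Without siRNA1 replicate 3, 2 of the 6 were called (MRPL12 and MRPS35). Without NTC replicate 1, NTC replicate 3, siRNA1 replicate 1 or siRNA1 replicate 2, the calls were 2 of the 6 and 1 other gene. That gene was MRPS28, MRPL55, MRPS28 and MRPL1 in turn, of which MRPL55 was on the higher side over all 9 libraries. Without NTC replicate 2 the calls were 4 of the 6 and 7 others, and without siRNA2 replicate 3 all 6 and 9 others. Without the 3 libraries numbered 1, none of the 6 was called and MRPS28 was. The shares of all genes called in these left-out fits are not given here, so their counts have no background beside them.

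MRPS35 (chr12, 71.6 CPM on average), a small subunit protein added in mitochondria, had 78.4, 77.7 and 73.8 CPM in the NTC libraries 1 to 3, 62.9, 66.1 and 59.4 CPM in the siRNA1 libraries, and 72.6, 76.5 and 76.7 CPM in the siRNA2 libraries. All 3 siRNA1 libraries were below all 6 others. The log2 fold change against NTC was -0.29 (SE 0.08), with an adjusted p of 0.113 by edgeR without the block, 0.00387 with it and 0.0199 by DESeq2. With the block it was called in siRNA1 vs NTC on leaving out any 1 of the 9 libraries, but not without the 3 numbered 1.

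MRPL12 had 6.81, 7.47 and 7.55 CPM in the NTC libraries, 5.45, 5.70 and 5.82 CPM in the siRNA1 libraries, and 6.40, 6.67 and 5.71 CPM in the siRNA2 libraries. The siRNA1 libraries were below NTC without overlap, and siRNA2 replicate 3 lay among them. Its log2 fold change of siRNA1 against NTC was -0.36 (SE 0.12), the largest in size of the 78, with an adjusted p of 0.233 by edgeR, 0.0123 with the block and 0.0379 by DESeq2. These counts come from the part of the gene that AC139530.2 does not share.

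MRPS6, the counterpart of bacterial S6, had 37.7, 37.0 and 38.9 CPM in NTC, 33.8, 28.4 and 32.9 CPM in siRNA1, and 35.3, 34.6 and 41.5 CPM in siRNA2 libraries. All 3 siRNA1 libraries were below the other 6. Its log2 fold change against NTC was -0.26 (SE 0.10), with an adjusted p of 0.349 by edgeR and 0.0172 with the block. Other genes share 31.9% of the principal transcript of MRPS6, and reads there are not in these counts.

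MRPL57, a large subunit protein added in mitochondria, had 83.0, 69.4 and 81.6 CPM in NTC, 70.7, 64.3 and 63.5 CPM in siRNA1, and 80.4, 78.0 and 75.2 CPM in siRNA2 libraries. NTC replicate 2 lay below siRNA1 replicate 1, so these groups overlapped, and within each replicate number siRNA1 was the lowest. MRPL14, which in bacteria sits at the interface between the subunits, had 67.0, 71.4 and 77.7 CPM in NTC, 58.0, 64.8 and 61.6 CPM in siRNA1, and 66.3, 68.0 and 64.0 CPM in siRNA2 libraries. MRPL42 had 104.3, 96.6 and 97.6 CPM in NTC, 90.7, 84.6 and 78.7 CPM in siRNA1, and 100.2, 89.4 and 109.6 CPM in siRNA2 libraries. Both were below NTC without overlap in the siRNA1 libraries and overlapped siRNA2. With the block the adjusted p was 0.0231 for MRPL57, 0.0264 for MRPL14 and 0.0357 for MRPL42, and by edgeR without it 0.333, 0.312 and 0.378.

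**Figure D3:**
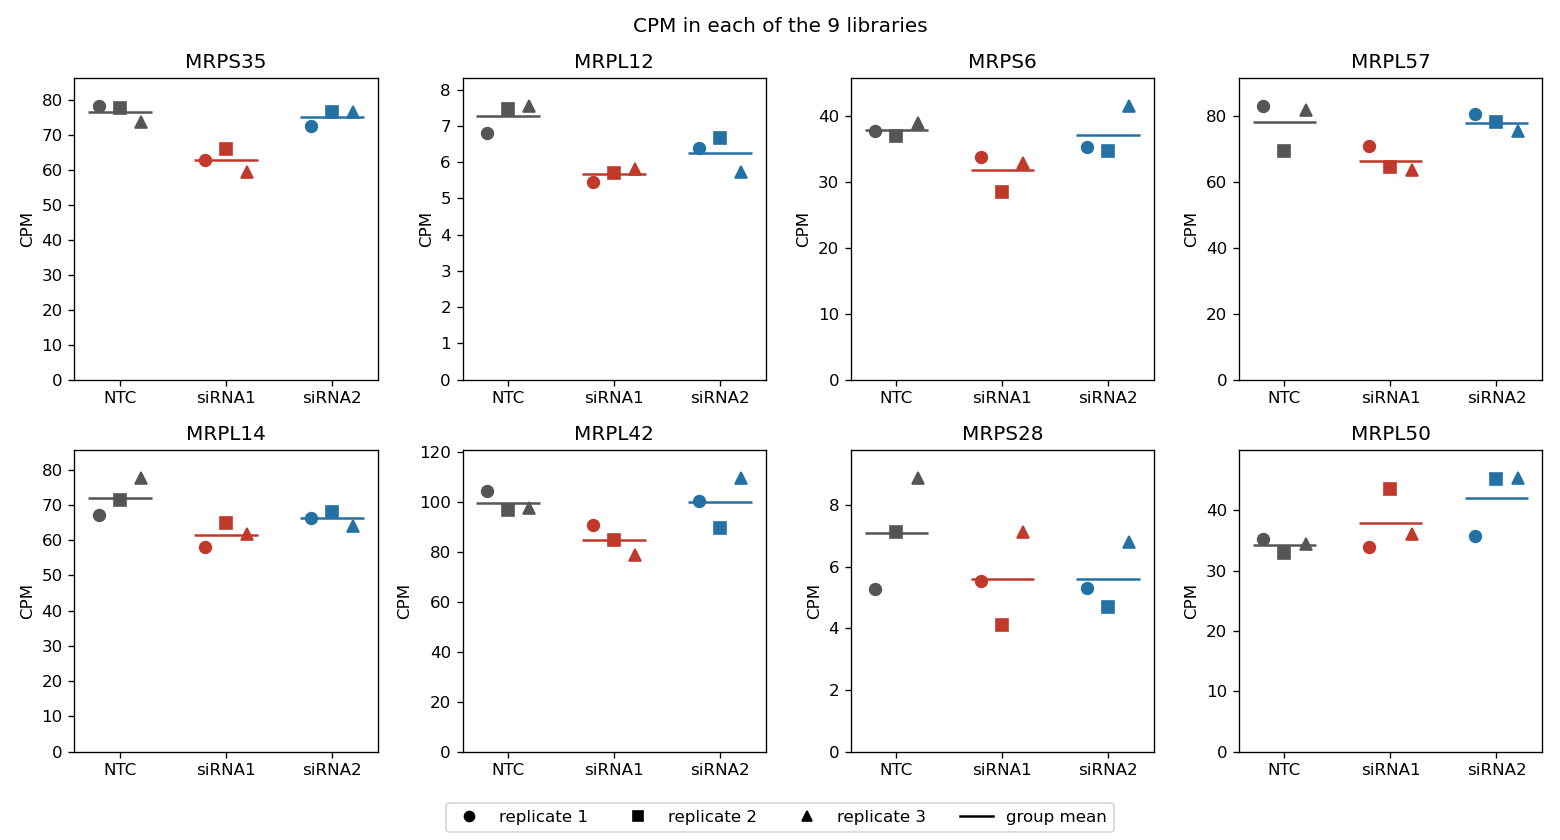
CPM in each library for 8 genes, from 0 upward, with groups on the x axis, markers for the replicate number and lines for group means. In MRPS35 and MRPS6 the 3 siRNA1 points lie below the other 6, in MRPS28 the libraries numbered 3 are the highest of each group, and MRPL50 is highest in siRNA2 replicates 2 and 3.

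Among the other genes at the ends of this comparison, MRPS28, a small subunit protein with a bacterial counterpart, had 5.26, 7.13 and 8.88 CPM in NTC, 5.55, 4.11 and 7.11 CPM in siRNA1, and 5.31, 4.70 and 6.79 CPM in siRNA2 libraries. Its groups overlapped, and its log2 fold change of -0.35 had the widest error of the 78 (SE 0.23). AC036214.3 shares 55.4% of the principal transcript of MRPS28, and reads there are not in these counts. At the upper end were MRPL55 (log2 fold change 0.20, SE 0.18), MRPL50 (0.15, SE 0.12), MRPL41 (0.14, SE 0.16), MRPL24 (0.11, SE 0.13) and MRPL33 (0.10, SE 0.12), none of which passed. MRPL55, the counterpart of bacterial L31, had 27.1, 17.5 and 21.0 CPM in NTC and 28.1, 25.5 and 21.4 CPM in siRNA1 libraries. The groups overlapped through the high NTC replicate 1.

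For the libraries labelled siRNA2 against NTC, the second TLX1 siRNA, no member and no gene at all passed in edgeR (0.0% of 18554), and with the block no member passed where 0.151% of all genes did. At an unadjusted p under 0.05 there was 1 member (1.28%, against 2.11% of all genes), MRPL50, which was higher. DESeq2 and limma-voom called 0 members as well. Without overlap, 2 members were lower (MRPL12 and MRPL27) and 2 higher (MRPL19 and MRPL50), where 2.72% of all genes were lower and 2.86% higher. The median log2 fold change was -0.01 (0.00 over all genes), with 46 of 78 negative. The median turned to 0.02 without NTC replicate 1 or without siRNA2 replicate 3 and was -0.04 without NTC replicate 2 or siRNA2 replicate 2. In all, 77 intervals lay within 1.5-fold. MRPL50, a large subunit protein added in mitochondria, had 35.2, 32.9 and 34.4 CPM in NTC, 35.7, 45.1 and 45.4 CPM in siRNA2, and 34.0, 43.5 and 36.1 CPM in siRNA1 libraries. Its log2 fold change in siRNA2 was 0.30 (SE 0.12), with an adjusted p by edgeR that rounded to 1.00. The other largest values were MRPL53 (0.18), MRPL55 (0.18), MRPL52 (0.14) and MRPL19 (0.13) on the higher side, and MRPS28 (-0.35), MRPL12 (-0.22), MRPS2 (-0.15), MRPL27 (-0.15) and MRPS26 (-0.14) on the lower side. This comparison shares the NTC libraries with the one before, so the values of MRPL12 and MRPS28 in both are not independent.

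Between the libraries labelled siRNA1 and siRNA2 no member passed in edgeR, where 1.08% of all genes did. DESeq2 called 1 (MRPS35) and limma-voom 0. In edgeR 5 members, all lower in siRNA1, had an unadjusted p under 0.05 (6.41%, against 10.04% of all genes in either direction). The median log2 fold change was -0.06 (0.01 over all genes), with 61 of 78 negative (78.2%, against 47.5% of all genes). The median came to -0.02 without siRNA1 replicate 3 and to -0.11 without siRNA2 replicate 3, the 2 libraries with the most reads in no gene. It came to -0.03 without siRNA2 replicate 2 and to -0.09 without siRNA1 replicate 2. In 11 members every siRNA1 library was below every siRNA2 library and in none above, where 7.23% of all genes were lower and 7.19% higher. With the block 5 members were lower (MRPS35, MRPL57, MRPL19, MRPL42 and MRPS6; 6.41%), where 10.6% of all genes passed in either direction and 5.27% were lower. None of the 5 was called with the block after leaving out siRNA1 replicate 1 or siRNA1 replicate 3, and 2, 3 and 3 were after leaving out siRNA2 replicate 3, siRNA2 replicate 2 and siRNA1 replicate 2. MRPL19, the counterpart of a bacterial protein at the subunit interface, had 38.6, 40.4 and 34.1 CPM in siRNA1 and 44.5, 43.2 and 45.7 CPM in siRNA2 libraries, without overlap (-0.24 on the log2 scale, SE 0.09, adjusted p 0.315 by edgeR and 0.0285 with the block). On the higher side MRPS18A (log2 fold change 0.14), MRPS36 (0.10), MRPS14 (0.09), MRPL33 (0.08) and MRPL2 (0.07) led, and none passed.

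Against NTC, the 2 TLX1 siRNA groups at equal weight gave no member that passed in edgeR, where 0.0162% of all genes did. At an unadjusted p under 0.05, 1 member was higher and 5 were lower (7.69% in either direction, against 5.23% of all genes). DESeq2 and limma-voom called 0. With the block MRPL12 was lower (log2 fold change -0.29, adjusted p 0.0450), where 3.92% of all genes passed in either direction and 2.23% were lower, and on leaving out each library in turn this call held only without siRNA2 replicate 1.

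**Figure D4:**
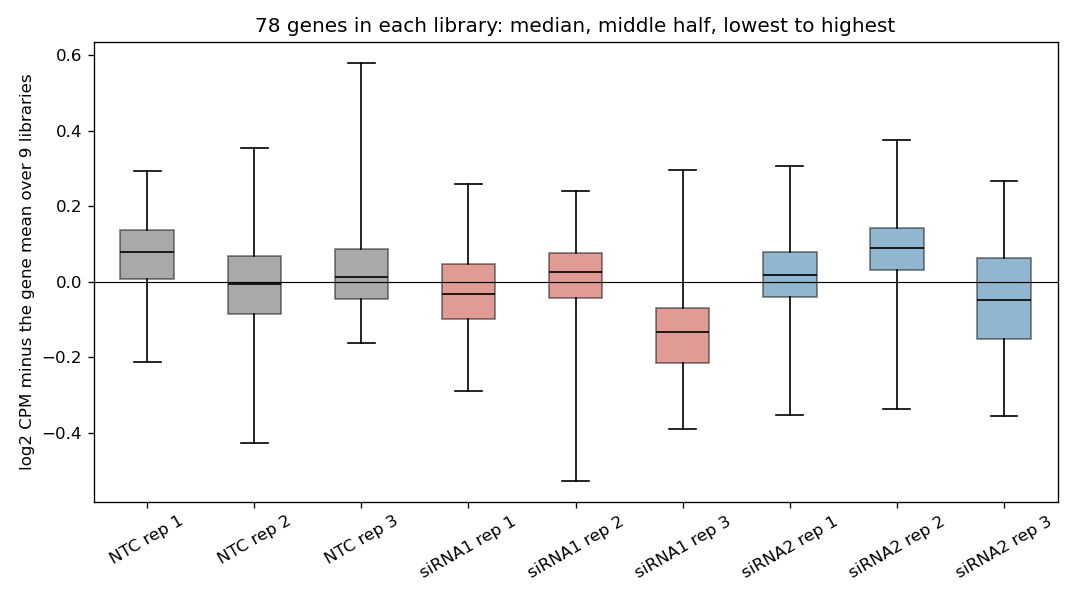
Deviation of the 78 genes from their own means over 9 libraries, in log2 CPM, by library; boxes give the median and the middle of the genes and whiskers the lowest and highest gene. siRNA1 replicate 3 lies lowest, with a median of -0.13, and siRNA2 replicate 2 (0.09) and NTC replicate 1 (0.08) highest.

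The median deviation of the 78 genes differed between libraries of the same group. It was -0.13 (log2) in siRNA1 replicate 3 and -0.05 in siRNA2 replicate 3, and 0.09 in siRNA2 replicate 2 and 0.08 in NTC replicate 1, while over all genes it stayed between 0.00 and 0.02. siRNA1 replicate 3 was the lowest of the 9 libraries for 34 of 78 genes and siRNA2 replicate 3 for 17. These are the 2 libraries with the most reads in no gene, and the part of that in the deviations was not tested.

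Replicate number, which the labels do not explain, separated more of these genes than any siRNA label. In a test of the 3 numbers over all 9 libraries, 22 of 78 members (28.2%) passed in edgeR, below the 35.8% of all tested genes that did. The count was 14 without siRNA1 replicate 1 or without siRNA1 replicate 2, and 34 without NTC replicate 2, with no share of all genes given for these fits. Of the 22, 13 were higher and 9 lower in the libraries numbered 1 than in the others. The libraries numbered 3 held the lowest mean for 16 of the 22 and the highest for 4. The ratio of the highest to the lowest number's mean ran from 1.14 to 1.43, with a median of 1.25. Under all 17 settings tried, 11 of the 22 were called: MRPL4, MRPL11, MRPL28, MRPL37, MRPL40, MRPL48, MRPL55, MRPS15, MRPS28, MRPS34 and MRPS36.

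MRPL40, a large subunit protein added in mitochondria, averaged 28.7 ± 1.53 CPM in the libraries numbered 1, 24.2 ± 1.19 in those numbered 2 and 21.9 ± 0.938 in those numbered 3 (SD, n = 3 each), with an adjusted p of 0.000768 by edgeR. In the NTC, siRNA1 and siRNA2 libraries numbered 1 it had 30.3, 28.6 and 27.3 CPM, against 22.6, 20.8 and 22.1 CPM in those numbered 3, without overlap. MRPS34 averaged 94.6 ± 2.90, 88.5 ± 5.29 and 73.9 ± 8.01 CPM in numbers 1, 2 and 3, and MRPS15 69.6 ± 5.06, 63.7 ± 5.36 and 54.2 ± 5.99 CPM. MRPL28, the counterpart of bacterial L28, averaged 62.0 ± 1.24, 56.0 ± 4.14 and 47.9 ± 4.75 CPM.

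In other members the libraries numbered 2 were on top. MRPL4 averaged 39.4 ± 1.43, 49.2 ± 4.85 and 37.7 ± 5.01 CPM, and MRPL3, the most abundant member in CPM, 110.1 ± 6.21, 129.7 ± 7.74 and 106.8 ± 10.5 CPM. MRPL3 is the counterpart of a bacterial protein next to the peptidyl transferase centre. In the opposite direction MRPS36 averaged 13.6 ± 1.19, 16.4 ± 0.371 and 18.0 ± 0.419 CPM, and MRPS28 5.37 ± 0.151, 5.31 ± 1.60 and 7.60 ± 1.12 CPM. The libraries numbered 1 held the lowest mean for 3 of the 22, MRPS36, MRPL46 and MRPS2, and the highest for 11.

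**Figure D5:**
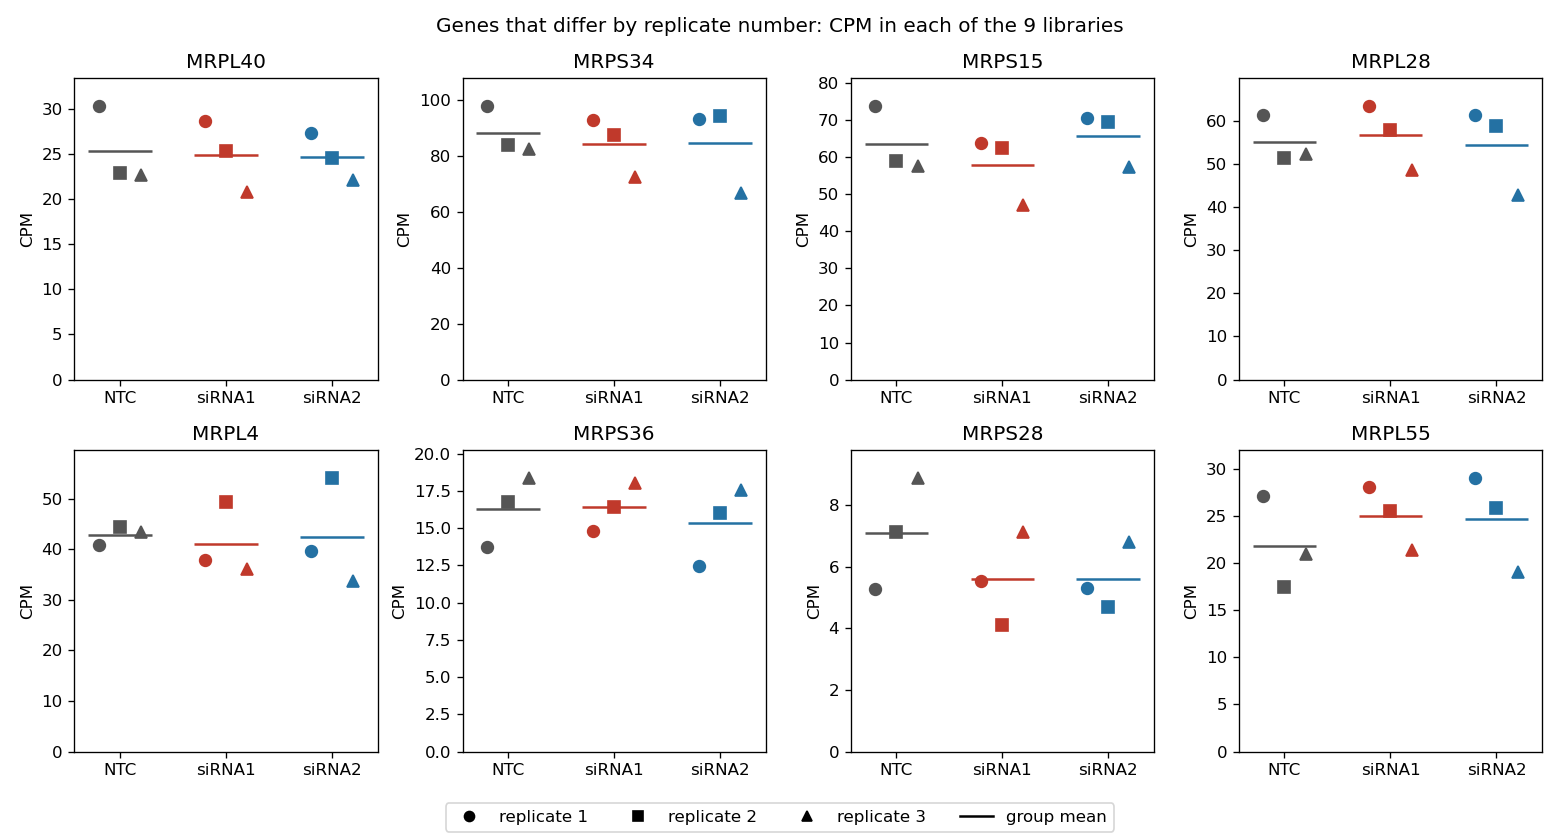
CPM in each library for 8 genes that differed by replicate number, from 0 upward, with groups on the x axis, markers for the replicate number and lines for group means. In MRPL40, MRPS34 and MRPS15 the libraries numbered 3 (triangles) are the lowest of each group, and in MRPS36 and MRPS28 they are the highest.

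The other genes of mitochondrial translation were taken from fixed lists. In siRNA1 vs NTC 1.28% of all genes passed in edgeR without the block, and 5.93% were lower with it. Of the 5 mitoribosomal proteins with other symbols none passed without the block. With the block 1 was lower, DAP3, a GTP-binding protein of the small subunit. DAP3 had 130.8, 144.8 and 122.7 CPM in NTC, 99.0, 110.9 and 89.6 CPM in siRNA1, and 129.1, 146.8 and 120.8 CPM in siRNA2 libraries. Its 3 siRNA1 values were below the other 6 (-0.41 on the log2 scale against NTC, SE 0.11, adjusted p 0.102 by edgeR and 4.04e-05 with the block), a difference larger in size than that of any of the 78. PTCD3 (-0.16, SE 0.08), CHCHD1 (-0.19, SE 0.13), AURKAIP1 (-0.12, SE 0.09) and GADD45GIP1 (-0.22, SE 0.13) were not called in either fit.

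In siRNA1 vs NTC 1 of 14 mitochondrial translation factors was lower and none higher, where 1.28% of all genes passed in either direction. The 1 was C12orf65, a release factor family protein that rescues stalled mitoribosomes. It had 54.7, 49.4 and 53.3 CPM in NTC, 41.6, 36.8 and 37.1 CPM in siRNA1, and 52.3, 48.2 and 51.8 CPM in siRNA2 libraries (adjusted p 0.0239 by edgeR for a log2 fold change of -0.45, SE 0.08). Of 26 assembly and rRNA modification factors 1 was lower and none higher, MTERF3, which takes part in mitochondrial transcription and ribosome assembly. It had 71.8, 67.3 and 68.6 CPM in NTC, 55.7, 56.4 and 51.7 CPM in siRNA1, and 69.9, 69.0 and 72.2 CPM in siRNA2 libraries (adjusted p 0.0469 by edgeR for a log2 fold change of -0.34, SE 0.07). With the block 3 of the 26 were lower in siRNA1 vs NTC, MTERF3, MRM1 and FASTKD2, where 5.93% of all genes were lower. MRM1 (log2 fold change -0.39, adjusted p 0.000952 by edgeR) methylates mitochondrial rRNA, and FASTKD2 (-0.29, adjusted p 0.00766) binds it. The count for translation factors stayed at 1. For C12orf65 and MTERF3 all 3 siRNA1 libraries were below the other 6, and both passed against siRNA2 as well (C12orf65 -0.40, adjusted p 0.0445; MTERF3 -0.37, adjusted p 0.0381, by edgeR). Against siRNA2 the block added GUF1 (-0.25, adjusted p 0.0148 by edgeR), a translation factor like bacterial LepA, to C12orf65, and FASTKD2 (-0.27, adjusted p 0.0125) to MTERF3. Over all genes in siRNA1 vs siRNA2, 1.08% passed without the block and 5.27% were lower with it.

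In siRNA1 vs NTC no gene passed in edgeR among 22 mitochondrial aminoacyl-tRNA synthetases, 19 genes of mitochondrial transcription and RNA maintenance, 10 regulators linked to nuclear-encoded mitochondrial genes, 13 mitochondrially encoded proteins or 84 cytosolic ribosomal proteins. With the block the counts were 1, 7, 2, 0 and 3 lower and none higher, where 5.93% of all genes were lower. The 7 were TFAM, LRPPRC, SLIRP, TWNK, POLG2, KIAA0391 and TRMT10C, and the 2 regulators were MYC (log2 fold change -0.37, adjusted p 0.00162 by edgeR with the block) and PPARGC1B (-0.33, adjusted p 0.00178). The median log2 fold change was -0.18 for the transcription and maintenance list, -0.05 for cytosolic ribosomal proteins and 0.10 for mitochondrially encoded proteins, beside -0.08 for the 78 genes. For replicate number 35.8% of all tested genes passed. Of the 13 mitochondrially encoded genes 12 passed, all higher in the libraries numbered 1. Of 84 cytosolic ribosomal protein genes 47 passed, 41 of them lower there. The 22 mitoribosomal genes that passed were split in the libraries numbered 1, with 13 higher and 9 lower. Of these 22, 16 had their lowest mean in the libraries numbered 3.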

How the data were processed

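The deposited values are raw read counts per gene, 1 table for each of 9 libraries, with 4 summary lines that are not genes, as the deposited files show. Per the labels' protocols the libraries came from poly(A) RNA with an unstranded TruSeq kit, so the count without regard to strand was used. Reads were aligned to GRCh38, which the submitters' processing notes name as the build. Aligner, counting tool and annotation: not given in the sources used here. Of 58096 identifiers 57488 matched GENCODE release 29, and the 608 unmatched held 0.0317% of counts.

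Genes were filtered by group with filterByExpr (minimum count 10, minimum total 15) which left 18554 for edgeR (version 4.0.16, under R 4.3.3), with TMM scaling (0.975 to 1.04), the quasi-likelihood F test, 1 fit of all 3 groups, Benjamini-Hochberg adjustment over all tested genes, threshold 0.05. SE was derived by dividing the size of the log2 fold change by the root of F. CPM are counts per 1000000 of the library's gene counts, scaled by TMM factors. Levels per kb divide by the principal transcript's bases that no other gene shares. Alternatives used limma 3.58.1 and DESeq2 1.42.0, other factors and filters, and left-out libraries. The fit without the block and the replicate number test were also run on simulated counts, drawn independently for each library. Their outcome is not given here, and the blocked siRNA tests were not run on simulated counts. Same-numbered libraries of different groups deviated together in all 9 pairs (correlations 0.383 to 0.623; differently numbered pairs -0.445 to 0.069), so blocked values stand beside results they change. The members, lists and tests were chosen with earlier results of these data known. Named members were those at the ends of each comparison (5 each way with a mean of at least 1 CPM), the 5 strongest each way for replicate number, the 6 highest and 6 lowest per kb, and 13 fixed for their roles. The members called only with the block were added after their values were seen. Promoter sequences are RefSeq's, on GRCh38.p14. Proteins are not shown here.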

Additional observations from a re-analysis of the deposited data

How the results depend on the processing

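Without a replicate block, no member passed in any siRNA comparison in edgeR under other normalization factors or filters, in limma-voom, in a fit of only the 2 groups compared, or without the 3 libraries numbered 1. DESeq2 called 2 members in siRNA1 vs NTC and 1 in siRNA1 vs siRNA2. The replicate block called 6 in siRNA1 vs NTC, 5 in siRNA1 vs siRNA2 and 1 in both TLX1 siRNAs vs NTC, and it changed no call in siRNA2 vs NTC. With the block and without the libraries numbered 1, 2 and 3 in turn, siRNA1 vs NTC gave 1, 4 and 3; siRNA1 vs siRNA2 gave 3 without those numbered 2; without those numbered 1, siRNA2 vs NTC gave 1 and both siRNAs gave 2. Over all fits that left out 1 library, with or without the block, the counts ran from 0 to 15, 0 to 2, 0 to 6 and 0 to 3 in the 4 siRNA comparisons in the order of the text, and from 14 to 34 for replicate number, which other settings kept between 19 and 25. The cause of these changes was not tested, and shares of all genes are not given for DESeq2, limma-voom or the left-out fits. Alternatives with the block that leave out libraries, the sum of strand counts and the other lengths for levels per kb were chosen after seeing the data.

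The median log2 fold change of the members ran from -0.14 to -0.03 in siRNA1 vs NTC, from -0.07 to 0.02 in siRNA2 vs NTC and from -0.11 to -0.02 in siRNA1 vs siRNA2 over fits that left out 1 library. Depth limits the members with low counts most, since MRPS24 had as few as 26 counts in a library. Of the members named at the ends of a comparison, 6 changed sign, none of them called. On leaving out 1 library, MRPL24 ran from -0.043 to 0.24 and MRPL41 from -0.014 to 0.30 in siRNA1 vs NTC, MRPL55 from -0.00509 to 0.36 in siRNA2 vs NTC, and MRPL2 from -0.012 to 0.15, MRPL33 from -0.023 to 0.16 and MRPS36 from -0.032 to 0.20 in siRNA1 vs siRNA2. With the block, MRPL24 was at -0.029 and MRPL55 (siRNA2 vs NTC) at -0.018 without the libraries numbered 2, and MRPL41 at -0.0068 without those numbered 3.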
